A study of Mus musculus with 6 samples.

Results

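The genes described here handle vitamin A and its active form, retinoic acid. They are Stra6, Lrat, Aldh1a1, Aldh1a2, Aldh1a3, Crabp1, Crabp2, Rarb and Cyp26b1, and all 9 had a row among the 24063 gene symbols of the count tables. The set was assembled because Lrat and Cyp26b1 have lower counts after pneumonectomy, so the difference between the groups is given for the 9 genes as a description, with no test. RNA came from lung endothelial cells (ECs) of male C57BL6 mice, collected with magnetic beads against CD31, a surface protein of ECs. The mice had either a sham operation or unilateral pneumonectomy (PNX), the removal of 1 lung, and the PNX samples were taken after 7 days. There were 3 sham and 3 PNX libraries, each pooled from 2 mice. The labels give an age of 8 weeks, the methods an older range, and the labels name no altered allele in either group. By the labels, the first 2 replicates of each group are re-used from a previous record (the earlier deposit), whereas the third is new (the later deposit).

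Cells take up retinol from its carrier in blood through the receptor STRA6, and LRAT joins it to a fatty acid to give retinyl esters, the stored form. Retinol is otherwise oxidized to retinal and then, by the retinaldehyde dehydrogenases ALDH1A1, ALDH1A2 and ALDH1A3, to retinoic acid. CRABP1 and CRABP2 bind retinoic acid in the cytoplasm, the nuclear receptor RARB switches genes on when retinoic acid is bound, and CYP26B1 breaks retinoic acid down. In the lung, retinoic acid is known for its part in the formation of alveoli, and CYP26 enzymes limit where it acts.

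Retinoic acid receptors bind DNA with their RXR partners at direct repeats of a short motif. The 250 bases before each RefSeq start (GRCm38.p6) were searched on both strands for pairs of the motif in the same direction, separated by 5 bases (a DR5 element), where the motif was AGGTCA, the common variant AGTTCA, the further variant GGGTCA, or the last variant searched, GGTTCA, in any combination. Of the 9 genes, 7 had a promoter entry, with 11 entries in all (Aldh1a3 and Crabp2 had none), and 1 entry, that of Rarb, held a DR5. Among 32851 promoter entries of all genes 29 held it (0.0883%). Of 42 other retinoid genes with an entry, 1 held a DR5, the gene of the related breakdown enzyme Cyp26a1. The sites of Rarb and Cyp26a1 are shown because these genes are known to be switched on by retinoic acid. Both are read on the minus strand of the genome with 5 bases on each side, and the repeated motifs are in capitals.
Rarb, chr14:16575508-16575534: ggaagGGTTCAccgaaAGTTCActcgc
Cyp26a1, chr19:37697771-37697797: aaattAGTTCAcccaaAGTTCAtcttt
The Rarb site lay 53 to 37 bases before the RefSeq start, inside the first exon of a longer transcript in GENCODE vM21, and the Cyp26a1 site 32 to 16 bases before the start. The promoters of Lrat and Cyp26b1 held no such pair at a spacing of 5, 2 or 1 bases and also no single motif. Of all promoter entries 0.174% held a pair at a spacing of 2 bases, 0.164% at 1 base, and 38.6% a single motif. Both are shown because these genes were lower in every PNX library, read 5′ to 3′ on the minus strand and up to the first exon, in lower case throughout as nothing in them was marked.
Lrat, chr3:82903975-82904224: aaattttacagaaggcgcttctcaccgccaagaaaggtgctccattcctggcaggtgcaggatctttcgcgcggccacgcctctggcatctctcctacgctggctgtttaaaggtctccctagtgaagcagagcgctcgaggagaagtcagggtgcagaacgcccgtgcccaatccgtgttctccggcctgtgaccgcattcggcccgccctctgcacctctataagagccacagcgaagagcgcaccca
Cyp26b1, chr6:84593909-84594060: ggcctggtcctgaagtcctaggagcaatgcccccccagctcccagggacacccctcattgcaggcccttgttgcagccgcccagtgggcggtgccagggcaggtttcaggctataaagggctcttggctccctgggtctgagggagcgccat

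The libraries held 29526989 to 81282871 counts, fewest in replicate 3 of each group. Replicates 1 and 2 of a group lay close to counting error (chi-square per degree of freedom 1.75 in sham and 1.57 in PNX, where 1 is counting error alone), against 67.9 to 86.4 for pairs with replicate 3. Their counts were therefore summed, leaving 2 samples per group, although the design text counts each library as its own pool of mice. The p-values then measure only the spread between these samples, which may be technical. Levels are given as CPM, counts per 1000000 of a library size that was scaled by the trimmed mean of M-values (TMM), and values of 3 libraries are listed in the order of replicates 1, 2 and 3. The endothelial marker Pecam1 lay between 2016 and 2518 CPM in all libraries, and all 8 endothelial markers checked were present. Of these 8 markers, 5 were lower after PNX in both deposits and 1 was higher. Their summed CPM was 8324 and 6951 in sham (earlier and later deposit) and 7132 and 6467 in PNX. Other lung cell types were present too, with summed CPM of 1768 to 4922 for 5 alveolar type 2 markers and 647 to 4418 for 4 alveolar type 1 markers in the 4 samples. In such bulk samples, fewer cells of a type and less RNA per cell cannot be told apart.

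Of the 9 genes, Lrat and Cyp26b1 were lower in every PNX library than in every sham library, as were 18.0% of the 16598 genes tested. Aldh1a3 was higher in every PNX library than in every sham library, as were 18.6% of all genes tested, and the groups overlapped for the other 6. The median log2 fold change over the 9 genes was 0.63, against -0.01 over all genes tested. That median is the value of Crabp1, which was near the limit of detection. Of the 9 values 5 were above 0 and 4 below. With edgeR's quasi-likelihood test at the thresholds of the methods (adjusted p below 0.01, log2 change beyond 1 in size), 0% of all genes passed with 4 samples. At an unadjusted p under 0.05 in this test, 2076 of all genes stood out, and at the thresholds limma-voom called 0 and DESeq2 572. On simulated counts neither edgeR without the block nor limma-voom found the genes that had been changed, so a count of 0 from them does not show that genes did not differ. With the deposit as a replicate block, 5.12% of all genes passed (3.89% higher and 1.23% lower). Because the set was chosen on this contrast, counts of calls among the 9 genes would carry no weight of their own and are not given.

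**Figure D1:**
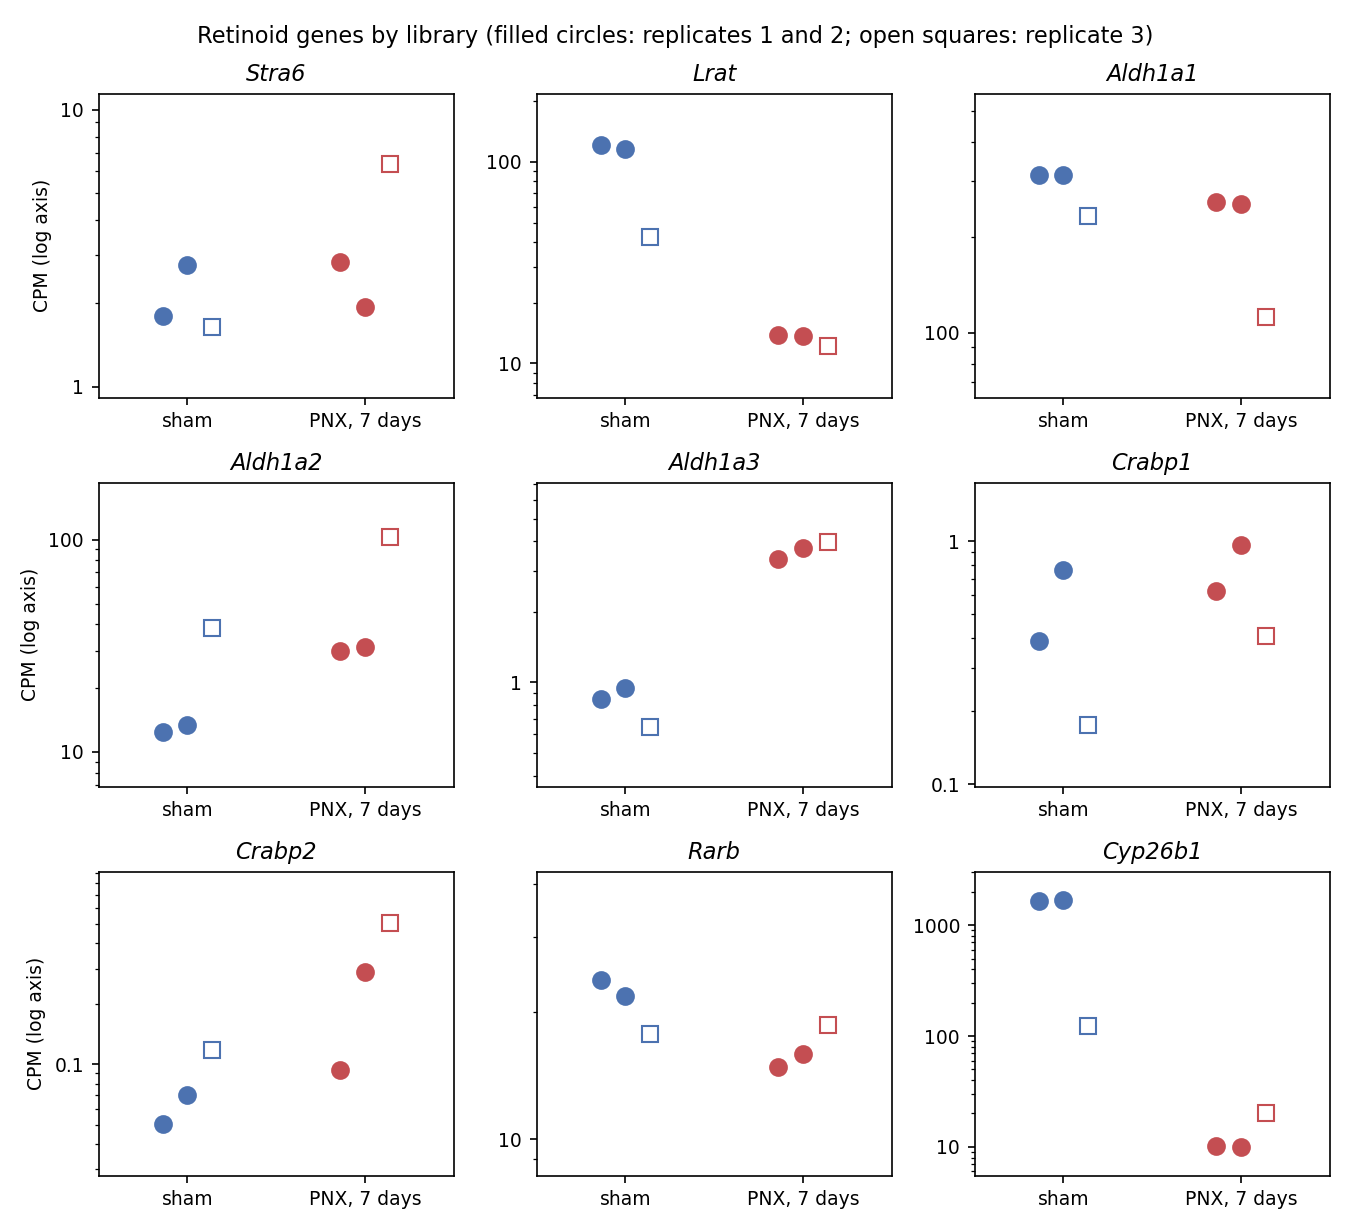
Level of each of the 9 retinoid genes in the 6 libraries, as CPM on a log axis, with sham in blue and PNX in red. Filled circles are replicates 1 and 2 (earlier deposit) and open squares replicate 3 (later deposit). Lrat and Cyp26b1 lie lower in all PNX libraries than in all sham libraries and Aldh1a3 higher, and in sham the replicate 3 value of Cyp26b1 lies far below the other 2.

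Cyp26b1, the retinoic acid hydroxylase, had the largest fitted log2 fold change in size of the 9 genes. Its level was 1664, 1693 and 122 CPM in the 3 sham libraries, against 10.2, 9.89 and 20.02 CPM in the 3 PNX libraries. The groups did not overlap, but the third sham library lay much closer to the PNX libraries than the first 2 did. The mean was 903 ± 1104 CPM (SD, n = 2 samples) in sham and 15.1 ± 7.04 CPM in PNX. Its gene (ENSMUSG00000063415, chr6:84571414-84593908 on the minus strand, GRCm38) has 2 counted transcripts, and their counts were nearly the same in every library. The more abundant transcript had 66402, 60147 and 2074 counts in sham and 384, 328 and 297 in PNX.

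In the earlier deposit Cyp26b1 was 166-times lower after PNX (exact 95% interval 154 to 179, which like all such intervals here covers counting error only), the largest decrease among the 16598 genes tested. In the later deposit it was 6.07-times lower (5.37 to 6.88), the 75th largest decrease. Most of that gap between deposits lay on the sham side. In sham, Cyp26b1 was 13.8-times lower (13.2 to 14.4) in the later deposit, the 23rd largest decrease of all genes, whereas in PNX it was 1.99-times higher there (1.73 to 2.28). The fitted log2 fold change for PNX was -5.91 with 4 samples and -5.08 with the replicate block.

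Lrat makes the retinyl esters in which retinol is stored, and its level too was lower after PNX in both deposits. It was 121, 116 and 42.5 CPM in the 3 sham libraries, against 13.8, 13.7 and 12.2 CPM in the 3 PNX libraries. The PNX libraries lay within a narrow range, and the lowest sham library was well above them. The mean was 80.9 ± 54.2 CPM (SD, n = 2 samples) in sham and 13.0 ± 1.12 CPM in PNX. Lrat was 8.66-times lower after PNX in the earlier deposit (8.26 to 9.08), the 5th largest decrease of all genes tested, and 3.49-times lower in the later deposit (3.11 to 3.93), the 257th. Its single counted transcript (ENSMUSG00000028003, chr3:82892579-82903973, minus strand) lies within the antisense gene Rbm46os, with which it shares 0 exon bases and which had at most 14 counts in a library.

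Some cell type markers were lower in the same samples as Lrat and Cyp26b1. The summed CPM of 4 markers of general capillary ECs was 2609 and 1925 in sham (earlier and later deposit) and 1594 and 1196 in PNX, with 4 of 4 lower after PNX in both deposits. For 4 alveolar type 1 markers it was 4418 and 1700 in sham and 3206 and 647 in PNX, again with 4 of 4 lower. For 5 markers of lipofibroblasts, the lung cells known for retinyl ester stores, the sum was 3285 and 2904 in sham and 2974 and 1610 in PNX, with 3 of 5 lower in both deposits. All 5 alveolar type 2, all 3 club and all 3 ciliated cell markers were also lower in both deposits. Of the 8 endothelial markers 5 were lower in both deposits and 1 higher. Of 4 markers of aerocytes, which are capillary ECs, 2 were lower in both and 1 higher. None of these markers was at 0 in any library. Lymphatic EC markers summed to 846 and 370 in sham and 520 and 410 in PNX, with 1 of 5 lower in both deposits and Ccl21a at 0 in all but 1 library. The part of these cells in the values of Lrat and Cyp26b1 was not tested.

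Stra6, the retinol receptor (chr9:58063788-58153996, plus strand), was scarce in all libraries. It had 1.805, 2.76 and 1.65 CPM in the 3 sham libraries, against 2.83, 1.94 and 6.36 CPM in the 3 PNX libraries. The groups overlapped in the earlier deposit, and PNX replicate 3 was the highest. Its ratio of PNX to sham was 1.07 (0.782 to 1.46) in the earlier deposit and 3.86 (2.09 to 7.60) in the later, the latter from 47 and 14 counts. The 4 transcripts of Stra6 in the tables carried the same count in each library, so the ratio was taken from a single transcript. The CPM values sum all 4 and may hold the same reads more than once.

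The 3 retinaldehyde dehydrogenases, which make retinoic acid, did not differ in the same direction. Aldh1a1 (chr19:20492715-20643465, plus strand) had 315, 315 and 233 CPM in the 3 sham libraries, against 258, 255 and 112 CPM in the 3 PNX libraries. The groups overlapped, because sham replicate 3 lay below PNX replicates 1 and 2. Within a deposit Aldh1a1 was 1.23-times lower after PNX (1.21 to 1.25) in the earlier and 2.07-times lower (1.99 to 2.16) in the later.

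Aldh1a2 (chr9:71215789-71296243, plus strand) was higher after PNX within both deposits. It had 12.4, 13.4 and 38.2 CPM in the 3 sham libraries, against 29.8, 31.1 and 103 CPM in the 3 PNX libraries. The groups overlapped, since sham replicate 3 exceeded PNX replicates 1 and 2, and in both groups replicate 3 was the highest. The ratio of PNX to sham was 2.37 (2.25 to 2.50) in the earlier and 2.70 (2.53 to 2.88) in the later deposit.

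Aldh1a3 (chr7:66390890-66427517, minus strand), by contrast, differed little between deposits. It had 0.853, 0.944 and 0.646 CPM in the 3 sham libraries, against 3.37, 3.75 and 3.96 CPM in the 3 PNX libraries. All PNX libraries lay above all sham libraries, at low counts of 22 to 68 in sham and 117 to 253 in PNX. The ratio of PNX to sham was 3.97 (3.27 to 4.83) in the earlier and 6.12 (3.86 to 10.1) in the later deposit.

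Crabp1 (chr9:54764748-54773110, plus strand) and Crabp2 (chr3:87948666-87953376, plus strand), the binding proteins for retinoic acid in the cytoplasm, were near the limit of detection. Crabp2 had 4, 5 and 4 counts in the 3 sham libraries, against 7, 19 and 15 counts in the 3 PNX libraries. Scaled to CPM, the groups overlapped in a single pair of libraries, sham replicate 3 (0.117 CPM) and PNX replicate 1 (0.0933 CPM). The ratio of PNX to sham was 3.09 (1.40 to 7.49) in the earlier and 4.32 (1.38 to 17.9) in the later deposit. Crabp1 had 0.389, 0.761 and 0.176 CPM in the 3 sham libraries, against 0.626, 0.968 and 0.406 CPM in the 3 PNX libraries. Its groups overlapped, and the intervals of its ratio included 1 in both deposits (0.918 to 2.12 and 0.492 to 14.2).

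Rarb, the receptor with the DR5 element shown above, had the smallest fitted log2 fold change in size of the 9 genes (-0.26). It had 23.8, 21.8 and 17.7 CPM in the 3 sham libraries, against 14.8, 15.9 and 18.6 CPM in the 3 PNX libraries. In the earlier deposit both PNX libraries lay below both sham libraries, whereas in the later deposit the PNX library lay slightly above the sham library. Rarb was 1.53-times lower after PNX (1.38 to 1.70) in the earlier deposit, and the ratio was 1.08 (0.859 to 1.37) in the later. Rarb (ENSMUSG00000017491, chr14:16430839-16819156, minus strand) shares 1793 of its 5265 exon bases with Top2b on the opposite strand, which had 3047 to 10754 counts, and 227 with the antisense gene Gm48162. The library kit keeps strand, but the counting rule is not given in the sources used here, so reads of these genes in the counts of Rarb cannot be told apart.

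**Figure D2:**
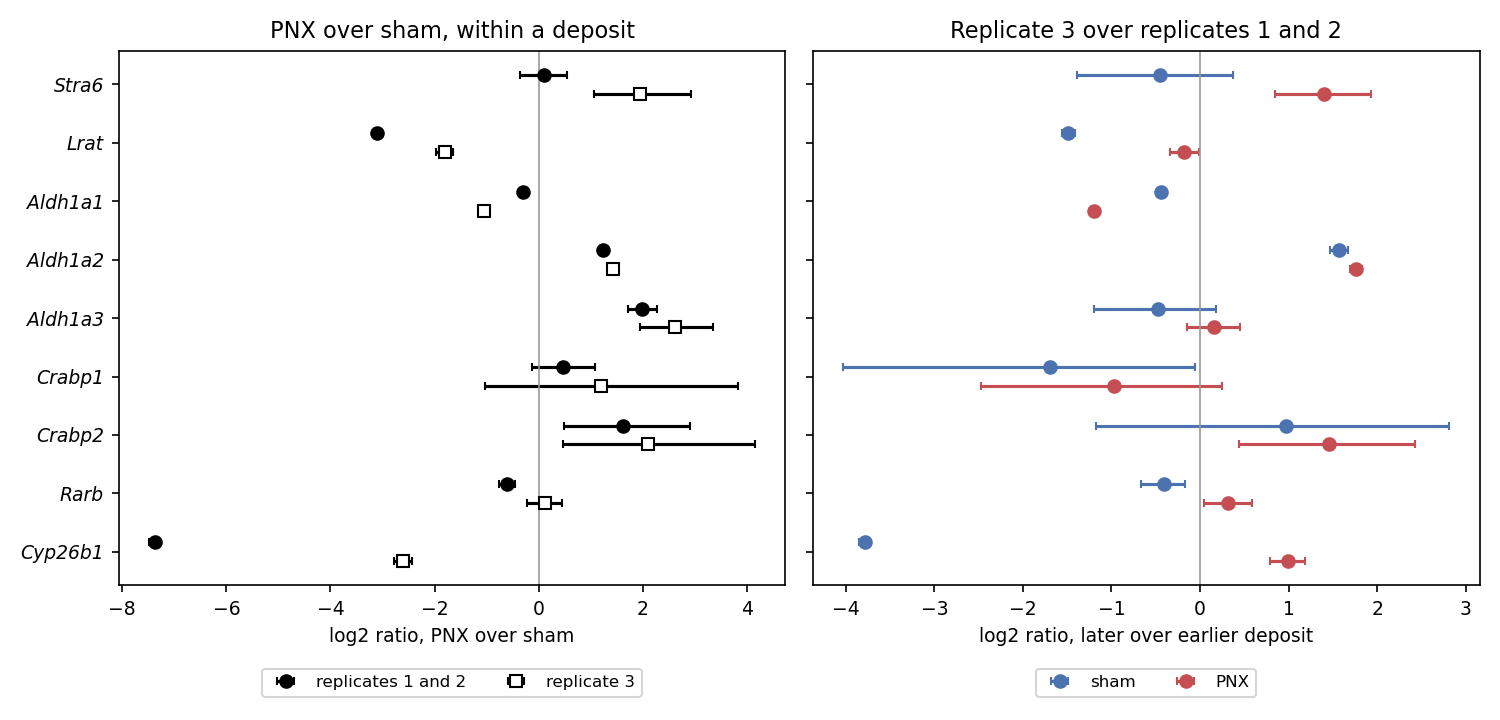
Log2 ratios of the 9 retinoid genes with exact 95% counting intervals, on the transcript with the most counts. The left panel shows PNX over sham in the earlier (filled) and later deposit (open), and the right panel the later over the earlier deposit in sham (blue) and PNX (red). Cyp26b1, Lrat and Aldh1a1 are negative and Aldh1a2, Aldh1a3 and Crabp2 positive in both deposits, with intervals that do not reach 0. In the left panel Rarb lies on opposite sides of 0, and its interval in the later deposit includes 0.

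The difference between the deposits is a measure that the choice of the genes did not use. It was tested over all genes in edgeR's fit with group and deposit. Of the 9 genes 1 passed the thresholds, beside 3.31% of all genes (2.62% higher and 0.693% lower in the later deposit). This was Aldh1a2, which was higher in the later deposit by a log2 value of 1.67 (SE 0.09, edgeR adjusted p = 0.000327), 2.98-times in sham (2.77 to 3.19) and 3.39-times in PNX (3.23 to 3.55). The adjusted p was 0.00571 or lower under each of 10 alternatives. Aldh1a1 was lower in the later deposit by a log2 value of -0.81 (SE 0.17, adjusted p = 0.0129) and Lrat by -0.89 (SE 0.26, adjusted p = 0.0457), and neither passed. For Cyp26b1 the value was -1.53 (SE 1.12, adjusted p = 0.348), with sham and PNX moving in opposite directions.

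Mesothelial cells, which cover the lung and are known to express Aldh1a2, were followed by 5 markers (Msln, Upk3b, Upk1b, Wt1 and Lrrn4). All 5 were higher after PNX in both deposits, and all 5 were higher in the later deposit in both groups. Their summed CPM was 99.8, 101 and 300.3 in the 3 sham libraries, against 257, 259.8 and 766 in the 3 PNX libraries. The level of Aldh1a2 was 12.4%, 13.2% and 12.7% of that sum in the 3 sham libraries, against 11.6%, 12.0% and 13.5% in the 3 PNX libraries. Its share of the sum thus varied little over the 6 libraries, while its level varied between 12.4 and 103 CPM. The ratio of Aldh1a2 to single markers varied more, from 0.990 to 1.21 for Lrrn4, 0.353 to 0.496 for Upk3b and 0.250 to 0.432 for Msln, but from 0.494 to 1.47 for Upk1b and 2.25 to 7.66 for Wt1. No marker of this list was at 0. The sum of 6 matrix fibroblast markers was 1053 and 1241 in sham but 3367 and 4911 in PNX, a different order over the samples. The part of mesothelial cells in the values of Aldh1a2 was not tested.

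**Figure D3:**
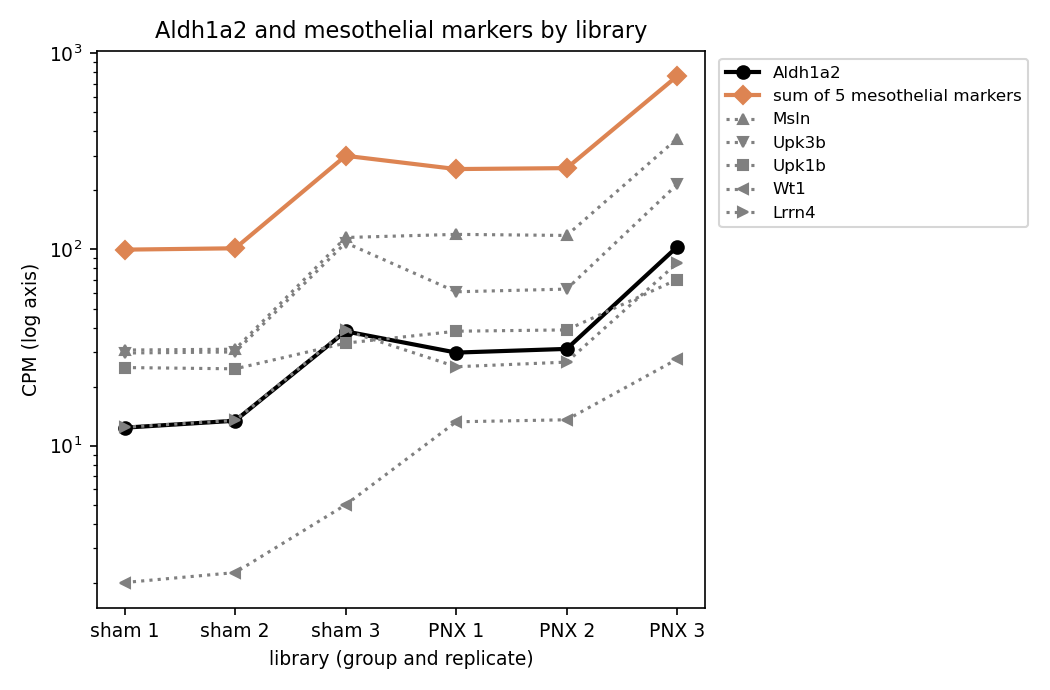
Aldh1a2 (black), 5 mesothelial markers (grey) and their sum (orange) in the 6 libraries, as CPM on a log axis. Lines join the values of a gene. Aldh1a2 follows the sum and stays between 11.6% and 13.5% of it.

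Levels were compared between genes only per transcript length, as the deposited TPM (counts scaled for transcript length and library size) of the transcript with the most counts. In sham the order of the mean TPM over 2 samples was Aldh1a1 (339), Cyp26b1 (238), Lrat (37.8), Aldh1a2 (28.4), Rarb (4.38), Crabp1 (0.593), Aldh1a3 (0.571), Stra6 (0.446) and Crabp2 (0.248). The first 4 overlapped with their neighbours in their range over libraries, as did Crabp1, Aldh1a3 and Stra6, whereas Rarb overlapped with neither neighbour and Crabp2 lay below Stra6. In PNX the order was Aldh1a1 (227), Aldh1a2 (74.1), Lrat (6.06), Cyp26b1 (3.98), Rarb (3.67), Aldh1a3 (2.77), Stra6 (0.991), Crabp2 (0.972) and Crabp1 (0.943). Lrat stayed above Cyp26b1 in every PNX library (5.72 to 6.44 against 2.61 to 5.32 TPM), while Cyp26b1 overlapped Rarb and the last 3 overlapped each other. Among all symbols Cyp26b1 ranked 209th and 203rd by TPM in sham replicates 1 and 2, 4122nd in sham replicate 3, and between 11324th and 12774th in PNX.

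Of 59 other genes of retinoid biology, 58 had a row and 47 were tested. Without the block edgeR called 0, with a lowest adjusted p of 0.0738. In that fit 8 had an unadjusted p under 0.05 (5 higher and 3 lower), beside 2076 of all 16598 genes tested. On the same samples limma-voom called 0 of the 47 genes and DESeq2 2. With the replicate block edgeR called 3, all higher after PNX (3.89% of all genes were called higher). The median log2 fold change of the 47 genes was 0.000346, against -0.01 over all genes tested.

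Cyp1b1, a cytochrome that can oxidize retinol and retinal among other substrates, was the clearest of the 3. It had 2.13, 1.89 and 2.73 CPM in the 3 sham libraries, against 13.3, 13.1 and 19.4 CPM in the 3 PNX libraries. The groups were far apart in both deposits. The log2 fold change was 2.76 with the block (SE 0.13, edgeR adjusted p = 2.41e-05) and 2.79 without it (SE 0.30, adjusted p = 0.0738). Over all settings its adjusted p ran from 4.63e-34 to 0.0981.

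Cyp26a1, the relative of Cyp26b1 whose promoter held a DR5, was very low and moved the other way. It had 0.0627, 0.0845 and 0.0588 CPM in the 3 sham libraries, against 0.586, 0.424 and 0.406 CPM in the 3 PNX libraries. All PNX libraries lay above all sham libraries, with 11 and 2 counts in the sham deposits and 72 and 12 in the PNX deposits. The ratio of PNX to sham was 6.99 (3.69 to 14.6) in the earlier and 6.91 (1.54 to 63.5) in the later deposit. The log2 fold change was 2.78 with the block (SE 0.47, edgeR adjusted p = 0.00688) and 2.74 without it (SE 0.49, adjusted p = 0.129). Settings that took replicates 1 and 2 as separate samples, or left out a replicate 3, are set aside here. Over the others, the adjusted p of Cyp26a1 ran from 0.00536 (edgeR with the block, without PNX replicate 2) to 0.156 (edgeR without the block and sham replicate 1). With the block it missed the threshold when sham replicate 1 (0.0159), sham replicate 2 (0.0136) or PNX replicate 1 (0.0274) was left out, and on all libraries with DESeq2 (0.0717) or with DESeq2 size factors in edgeR (0.0135). The third family member, Cyp26c1, had at most 3 counts in a library and was not tested.

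Rarres1, a gene named for its response to retinoids, had 1.39, 1.32 and 1.38 CPM in the 3 sham libraries, against 3.70, 2.98 and 6.15 CPM in the 3 PNX libraries. The sham libraries were alike, and PNX replicate 3 was the highest. The log2 fold change was 1.66 with the block (SE 0.24, edgeR adjusted p = 0.00384) and 1.78 without it (SE 0.38, adjusted p = 0.171). With the same settings set aside as for Cyp26a1, the adjusted p of Rarres1 ran from 2.98e-05 (DESeq2 with the block) to 0.229 (edgeR without the block and PNX replicate 1). With the block it missed the threshold when PNX replicate 1 was left out (0.026) and, on all libraries, with DESeq2 size factors in edgeR (0.0109). Beside these 3 genes and Aldh1a3, the 5 macrophage markers found of 6 were higher after PNX in both deposits (summed CPM 241 and 455.5 in sham but 643 and 769.7 in PNX), as were 5 of 6 matrix fibroblast markers, and their part in these values was not tested.

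**Figure D4:**
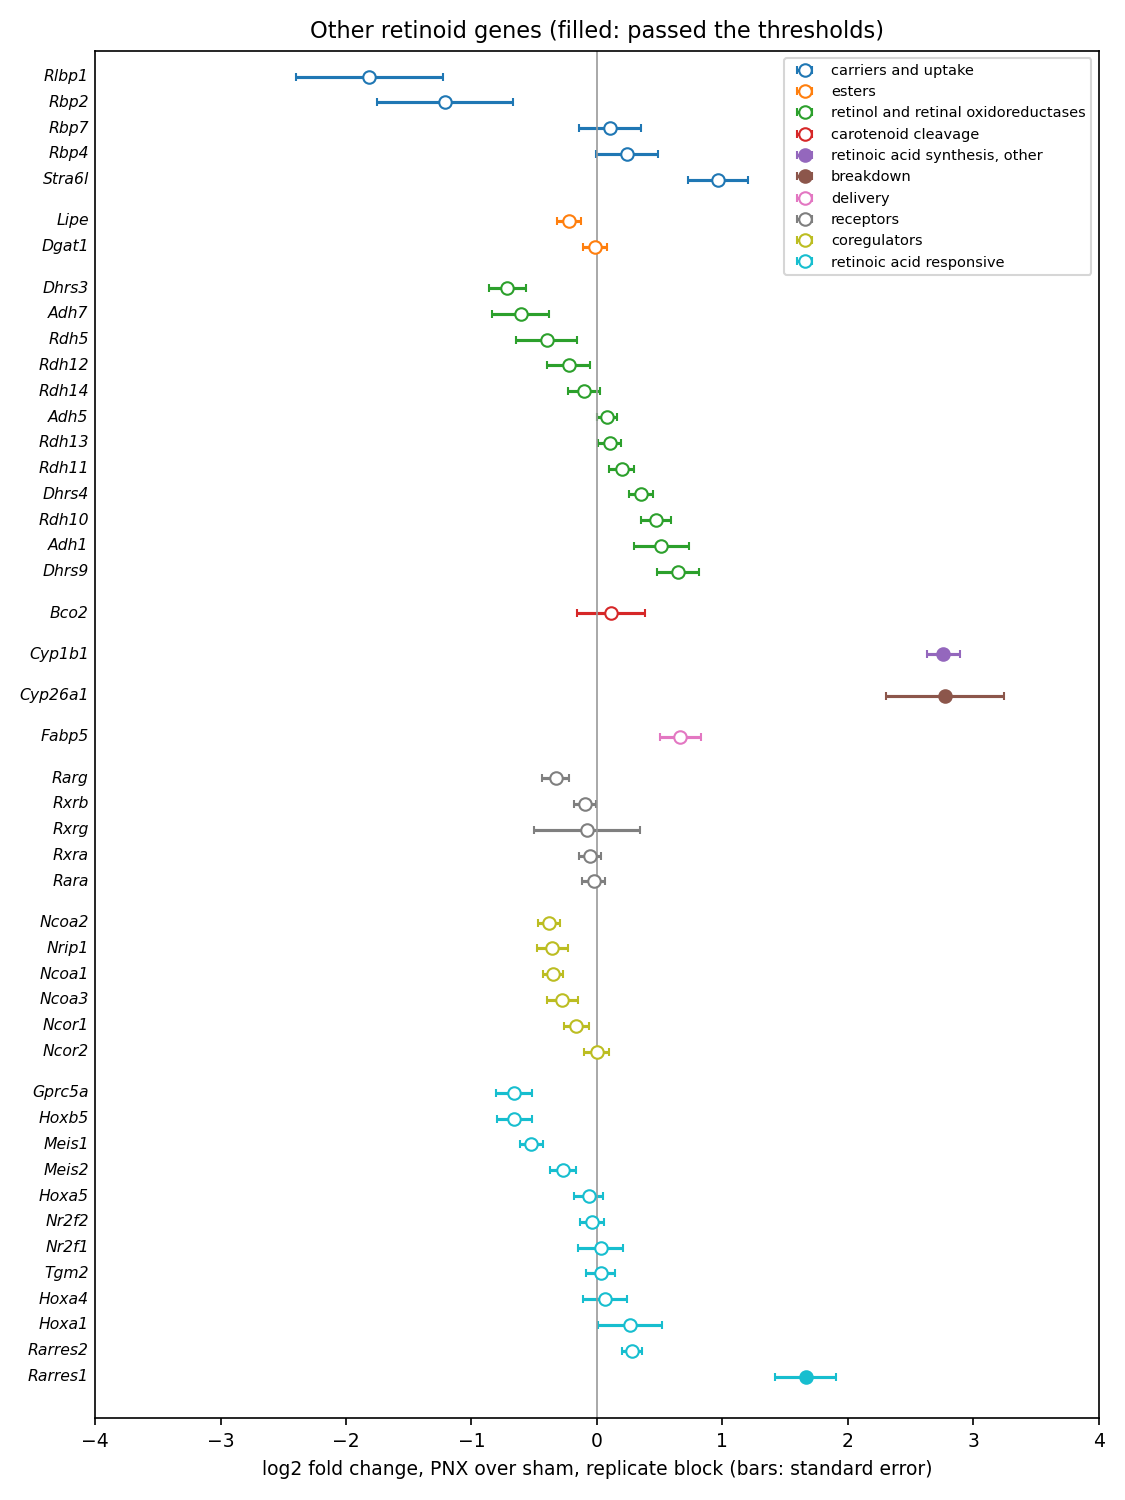
Log2 fold change of PNX over sham, with its standard error, for 46 of the 47 other retinoid genes tested with the replicate block, grouped by role. Filled symbols passed the thresholds, which were Cyp1b1, Cyp26a1 and Rarres1, and the receptors and coregulators have values of -0.38 or closer to 0.

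The relatives and RXR partners of Rarb gave small values with the block. The log2 fold change was -0.03 for Rara (SE 0.09), -0.33 for Rarg (SE 0.11), -0.05 for Rxra (SE 0.09), -0.10 for Rxrb (SE 0.09) and -0.08 for Rxrg (SE 0.42), and none passed. Rara had 167, 174 and 247 CPM in the 3 sham libraries, against 177, 178 and 228 CPM in the 3 PNX libraries, and Rarg 167, 170.2 and 129 CPM in sham, against 117, 119 and 118 CPM in PNX. Rara thus overlapped between the groups, and Rarg did not. Of the 47 other retinoid genes, 12 had every PNX library below every sham library, as did 18.0% of all genes tested. For 9 of the 47 every PNX library lay above every sham library, as for 18.6% of all genes.

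None of 6 carriers and uptake genes, 12 retinol and retinal oxidoreductases or 6 coregulators passed, and of 12 retinoic acid responsive genes 1 did (Rarres1). Dhrs3, which turns retinal back into retinol, had 180.0, 179 and 128 CPM in the 3 sham libraries, against 87.7, 87.9 and 98.3 CPM in the 3 PNX libraries. Its groups did not overlap, and its log2 fold change with the block was -0.71 (SE 0.15, edgeR adjusted p = 0.0142), short of both thresholds. Rdh10, which oxidizes retinol to retinal, had a value of 0.47 (SE 0.12, adjusted p = 0.0326). Rbp4, the carrier of retinol in blood, gave 0.24 (SE 0.25) and Rbp7 0.11 (SE 0.25). Fabp5, which can bring retinoic acid to other nuclear receptors, gave 0.66 (SE 0.16, adjusted p = 0.0278).

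The genes with the pattern most like that of Lrat were sought among 14290 symbols by the root mean square difference of centred log2 CPM over the 4 samples. They were Esm1 (0.55), Ptpru (0.55) and Cyp1a1 (0.55). Esm1, a proteoglycan gene of sprouting ECs, had 18.6 and 15.5 CPM in the sham samples (earlier and later deposit) but 4.15 and 5.15 CPM after PNX. Ptpru had 162 and 89.1 CPM in the sham samples but 45.2 and 43.4 CPM after PNX, and Cyp1a1 had 34.9 and 33.2 CPM in the sham samples but 9.66 and 7.52 CPM after PNX. For Cyp26b1 the closest were Lrat (1.56), 9530026P05Rik (1.86) and Esm1 (2.01). These distances were larger than those for Lrat. Lrat itself had a gap between the sham samples (119 and 42.6 CPM) that Esm1 and Cyp1a1 lacked, and none of the 3 genes closest to Cyp26b1 had a gap as large as that of Cyp26b1.

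**Figure D5:**
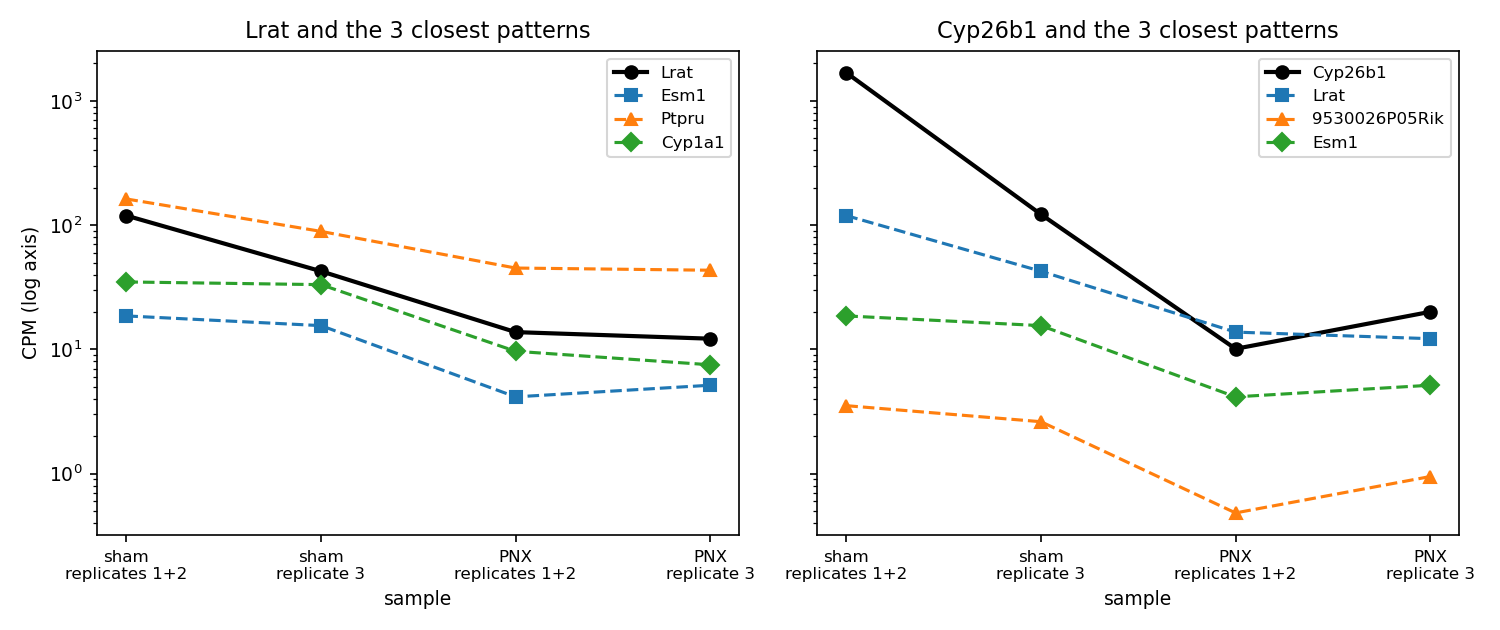
CPM on a log axis in the 4 samples for Lrat (left) and Cyp26b1 (right), in black, with the 3 genes of the most similar pattern (coloured). All genes shown are lower in both PNX samples than in both sham samples, and none of the coloured genes has a gap between the sham samples as large as that of the gene in black.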

How the data were processed

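Stranded mRNA libraries were sequenced paired-end, and the authors aligned the reads to mm10 (GRCm38; STAR is among the tools in the submitters' processing notes) and ran a DESeq2 pipeline. Neither the counting rule nor the annotation release is given in the sources used here. The authors deposited, for each library, raw counts of 33068 RefSeq transcripts with FPKM and TPM beside them. The FPKM values that the authors deposited were not used, and the deposited TPM values served only for levels between genes.

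Counts were summed per symbol. Reads shared by transcripts of a gene may have been counted on each, so ratios with exact (Clopper-Pearson) intervals at 95% used the transcript with the most counts. CPM values and tests used the summed counts. These may hold a read more than once for Stra6 and Rarb (4 transcripts each) and for Cyp26b1 and Crabp1 (2 each). Replicates 1 and 2 of each group were summed, since they differed by little more than counting error. Tests were run in R 4.3.3 with edgeR 4.0.16 (TMM scaling, filterByExpr, quasi-likelihood, Benjamini-Hochberg over all 16598 symbols tested), with DESeq2 1.42.0 and limma 3.58.1 as alternatives, and were checked on simulated counts, where edgeR without the block and limma-voom missed the changed genes and edgeR with the block and DESeq2 found most of them. The simulation changed 200 symbols by a log2 fold change of 2, alike in both deposits, with the dispersions of the fit with the block. It thus favoured the block and does not cover genes whose change differs between deposits. The standard error is the log2 fold change divided by the square root of F. The labels pair the groups by deposit, and the later-to-earlier difference in sham correlated with that in PNX over 13005 genes (Pearson's r = 0.755, Spearman's rho = 0.761, across genes, which are not independent). The replicate block is the deposit. Positions and overlaps are from GENCODE vM21 and promoters from RefSeq (GRCm38.p6). No 50-base word was shared between the annotated transcripts of the 9 genes and their paralogs, except 3.06% of those of Aldh1a1 with Aldh1a7.

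The 9 genes and all lists were chosen with earlier results of these data known. Named were all 9 genes, other retinoid genes passing with or without the block, a short list of receptors, carriers and enzymes, and the 3 closest patterns to Lrat and to Cyp26b1 among symbols with a mean count of at least 50. Of the genes so named, 1 is not reported here.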

Additional observations from a re-analysis of the deposited data

Results flagged for a closer look

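Of the 9 genes, 4 had log2 ratios of opposite sign in groups that were set side by side. Every library of a group lay on the same side, and these differences were not tested. From the earlier to the later deposit Cyp26b1 went down in sham (log2 ratio -3.78) and up in PNX (0.99). Stra6 also went down in sham (-0.45) and up in PNX (1.39), Aldh1a3 went down in sham (-0.47) and up in PNX (0.15), and Rarb went down in sham (-0.37) and up in PNX (0.28). In addition, Rarb was lower after PNX in the earlier deposit (log2 ratio -0.58) and slightly higher in the later (0.075). That later value was not beyond counting error (interval of the PNX to sham ratio 0.859 to 1.37). Such opposite moves were common, since 16.4% of the 16598 genes tested showed them between deposits and 16% between PNX and sham. For Stra6 and Aldh1a3 the sham values of the later deposit rest on 14 and 22 counts. The counting interval of the later over the earlier deposit included no change for Aldh1a3 in sham (ratio 0.437 to 1.14) and PNX (0.902 to 1.36). It also did so for Stra6 in sham (0.382 to 1.29), so these moves are not beyond counting error. The intervals of Cyp26b1 and Rarb excluded no change in both groups, as did that of Stra6 in PNX.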

How the results depend on the processing

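With 2 samples per group, 1 of which rests on a single library of lower depth, the number of calls depended on how deposits were treated. The replicate block raised the number of genes called for PNX versus sham from 0 to 849, and that of the other retinoid genes from 0 to 3. The numbers were 572 and 2 with DESeq2, 813 and 2 with DESeq2 and the block, and 624 and 1 with DESeq2 size factors and the block. They were 409 and 2 with 6 separate libraries, 1104 and 3 with 6 libraries and the block, and 1203 and 7 with the earlier deposit alone. These last 3 settings took replicates 1 and 2 as separate samples, although they differed by little more than counting error. Their numbers may therefore be too high. The other settings without the block (limma-voom, other scalings and filters, the transcript with the most counts, a threshold of 0.05) gave 0. Leaving out a library in turn gave 0 to 2 genes and 0 retinoid genes without the block, and 485 to 863 genes and 1 to 3 retinoid genes with it. Leaving out replicate 3 of a group with the block left no residual degrees of freedom and was not run. The count of 1 gene of the 9 that differed between deposits, Aldh1a2, was the same under 10 alternatives. The log2 fold change of Lrat lay between -3.18 and -2.42 and that of Cyp26b1 between -7.35 and -4.99 over 23 alternatives each. These ranges are a description, since both genes were chosen for this contrast. No alternative used the later deposit alone, where the log2 ratio was -1.80 for Lrat and -2.605 for Cyp26b1. No gene of the 9 changed direction under these alternatives, but in the later deposit alone Rarb had the opposite sign (log2 ratio 0.075). The value of Aldh1a2 moved to 0.26 without PNX replicate 3 and to 2.38 without sham replicate 3. That of Crabp2 moved to 1.24 without PNX replicate 3. Other values fell in size as well. Without PNX replicate 3, Stra6 went from 1.13 to 0.29 and Aldh1a1 from -0.57 to -0.09. With the earlier deposit alone Stra6 was at 0.11, and without sham replicate 3 Crabp1 went from 0.63 to 0.16. At these depths Crabp1 and Crabp2 had at most 32 counts in a library, which limits what their ratios can show.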
